A study of Mus musculus with 2 samples.

Results

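The genes described here encode the nuclear-encoded subunits of the respiratory chain and the ATP synthase, with some of their assembly factors. They were chosen by symbol alone, as every gene whose symbol begins with Nduf, Sdha, Sdhb, Sdhc, Sdhd, Uqcr, Cox4, Cox5, Cox6, Cox7, Cox8 or Atp5, leaving out names that contain -ps. This gave 102 of 55450 features, 2 of which share the symbol Atp5o. By the complex they belong to, 39 genes were of complex I, 4 of complex II, 8 of complex III, 21 of complex IV, 18 of complex V, and 12 were assembly factors. Ndufa4, which is named for complex I but is now placed in complex IV, and its relative Ndufa4l2 were counted under complex IV.

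The respiratory chain lies in the inner mitochondrial membrane. Complexes I and II take electrons from NADH and succinate, complex III passes them through cytochrome c to complex IV, which reduces oxygen, and complex V makes ATP from the proton gradient that complexes I, III and IV build. Most subunits come from the nuclear genes described here, and a small core of complexes I, III, IV and V is encoded in the mitochondrial DNA, while complex II is nuclear throughout. In macrophages the chain supports oxidative metabolism and is also known as a source of reactive oxygen species.

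The study sequenced F4/80+ peritoneal cells of mice, which carry a surface marker of macrophages, by droplet single-cell RNA sequencing. One library came from Ankrd22-/- mice (knockout) and 1 from Ankrd22+/+ mice (wild type). The line was made with CRISPR/Cas9, and the age, sex and number of mice in each library are not given in the sources used here. With 1 library for each genotype there is no replicate and no test between genotypes, so a difference between the libraries cannot be told apart from a difference between mice, sorts or preparations.

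Filtering left 6036 cells of the Ankrd22-/- and 5946 of the Ankrd22+/+ library, whose median counts were 16003.5 and 14339 UMIs (unique molecular identifiers, which count captured transcripts). Clusters were named from marker genes. Large-macrophage-like cells numbered 5042 in Ankrd22-/- and 4142 in Ankrd22+/+ cells, small-macrophage-like cells 477 and 1386, and cycling cells 478 and 378. The small class was cluster 7 in the knockout and cluster 3 in the wild type library, the S-phase-like cells were clusters 8 and 13, and the G2M-like cells were cluster 10 of both. The rest were 31 and 38 B cells, and 10 cells in all that stayed unnamed. A cluster in which no class had 3 markers at 2-fold over the other cells of its library took the large-macrophage-like name by default. It needed 3 markers of that class in at least 25% of its cells. Each such cluster showed 13 of 13, but so did the small cluster 3 and the cycling clusters 8, 10 and 13. The small cluster 7 showed 12 of 13, so these markers alone do not set the large class apart. The cells of the small class still carried the large-class markers, at a summed 17052 and 20584 CPM against 28291 and 22937 CPM in the large class, so that class is a range as much as a type. Its size changed with the settings, to 162 and 431 cells at clustering resolution 0.5 and 192 and 710 at resolution 2. At a 5% limit on mitochondrial UMIs it was 480 and 357 cells, without the wild type excess. Nearly every macrophage cluster came from 1 library: clusters 1, 2, 5, 9 and 11 held the knockout large class and clusters 0, 4, 6 and 12 the wild type one. The targeted gene Ankrd22 had 0 UMIs in each of the 3 classes of both libraries, so its transcript does not check the genotype labels. In all, 15 barcode sequences occurred in both libraries.

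Before the values, the bases upstream of a few members are shown, because the results turn on 2 isoform families and on Cox6a1, the measured complex IV gene with the highest ratio between the libraries. Subunit c of the ATP synthase, which forms its rotating ring, is encoded by 3 genes, Atp5g1, Atp5g2 and Atp5g3, whose mature proteins are the same. Subunit 7a of complex IV has a heart and muscle form, Cox7a1, and a general form, Cox7a2. The sequences are RefSeq's for build GRCm38.p6, read 5′ to 3′ on the strand of the gene, and stop before the first base in an annotated exon. Capitals mark the palindromic motif of nuclear respiratory factor 1 (NRF1), found in the bases of Cox6a1. The like stretches of Atp5k, Uqcrc1, Ndufab1 and Ndufs3 were searched too, did not hold it and are not printed.
Atp5g1, chr11:96075672-96075881, minus strand: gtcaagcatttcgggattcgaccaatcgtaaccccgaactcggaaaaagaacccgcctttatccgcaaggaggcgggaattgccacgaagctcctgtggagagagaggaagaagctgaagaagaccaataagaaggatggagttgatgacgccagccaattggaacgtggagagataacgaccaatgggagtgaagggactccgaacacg
Atp5g2, chr15:102671128-102671297, minus strand: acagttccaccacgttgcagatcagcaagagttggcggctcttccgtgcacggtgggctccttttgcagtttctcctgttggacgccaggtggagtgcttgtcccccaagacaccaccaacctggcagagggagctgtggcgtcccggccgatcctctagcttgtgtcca
Atp5g3, chr2:73911327-73911576, minus strand: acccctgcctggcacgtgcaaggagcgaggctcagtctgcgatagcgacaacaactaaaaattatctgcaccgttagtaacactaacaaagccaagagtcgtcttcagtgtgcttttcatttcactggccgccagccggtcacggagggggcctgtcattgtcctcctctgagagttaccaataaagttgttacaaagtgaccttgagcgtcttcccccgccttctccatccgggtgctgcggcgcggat
Cox7a1, chr7:30183921-30184140, plus strand: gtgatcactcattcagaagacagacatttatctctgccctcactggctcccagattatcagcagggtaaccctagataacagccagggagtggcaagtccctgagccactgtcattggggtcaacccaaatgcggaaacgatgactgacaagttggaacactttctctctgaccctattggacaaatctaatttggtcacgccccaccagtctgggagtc
Cox7a2, chr9:79759884-79760103, minus strand: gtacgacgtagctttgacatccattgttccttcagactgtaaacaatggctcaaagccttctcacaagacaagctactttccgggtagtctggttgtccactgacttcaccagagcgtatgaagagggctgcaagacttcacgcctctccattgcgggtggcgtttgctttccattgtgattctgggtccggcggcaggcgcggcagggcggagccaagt
Cox6a1, chr5:115348989-115349208, minus strand: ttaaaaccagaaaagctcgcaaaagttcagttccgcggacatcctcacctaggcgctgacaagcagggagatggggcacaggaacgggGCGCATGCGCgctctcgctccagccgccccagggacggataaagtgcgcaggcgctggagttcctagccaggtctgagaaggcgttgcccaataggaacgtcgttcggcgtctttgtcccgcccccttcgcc
Of these stretches, the one of Cox7a1 held 3 CpG dinucleotides in 220 bases and the one of Cox7a2 12 in 220 bases. Cox6a1 held 20 in 220 bases, and the subunit c genes held 14 in 210, 8 in 170 and 15 in 250 bases in the order Atp5g1, Atp5g2, Atp5g3.

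Promoter windows of 300 bases (250 before and 50 after the RefSeq start) were matched for 81 of the 102 members, which are 80 RefSeq genes. The NRF1 palindrome, searched in full and on both strands like the other motifs, was in 7 member windows (8.75%), those of Ndufaf4, Ndufaf5, Ndufa11, Uqcrc1, Cox6a1, Atp5g2 and Atp5k, against 1.07% of all 27025 genes. The motif CCGGAAG of the ETS family, to which GABP belongs, was in 21 (26.25%) against 9.93% of all genes, and the YY1 motif AAGATGGCG in 8 (10%) against 1.64%. Among genes measured in large-macrophage-like cells, the shares for members and for all genes were 8.33% and 2.56% for NRF1, 26.4% and 23.3% for CCGGAAG, and 11.1% and 4.52% for YY1. The gap for CCGGAAG was thus small once only expressed genes were compared. In Atp5g2 the NRF1 motif lay outside the bases printed above. A match describes letters in a window and no bound factor.

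Levels are given as CPM, a gene's UMIs per 1000000 UMIs of its class and library, and a gene was called measured in a comparison at a mean of at least 20 CPM over its 2 groups. These are counts of transcript 3′ ends, so gene length does not enter. In large-macrophage-like cells 84 of the 102 members were measured and 59 reached 100 CPM. Complex IV had the highest levels, with all of its 12 measured genes between 334 and 883 CPM (mean of both libraries) and a median of 544 CPM. Complex III had a median of 320 CPM over 8 genes, complex V 305 CPM over 16 genes and complex I 177 CPM over 36 genes. The 4 subunits of complex II lay lower, at a median of 68.9 CPM, and the 8 measured assembly factors lowest, at 25.2 CPM.

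The member with the highest level was Atp5e, the epsilon subunit of the ATP synthase, at 1064 CPM in Ankrd22-/- and 968 CPM in Ankrd22+/+ cells. In complex IV it was Cox4i1 (922 and 843 CPM), a subunit that surrounds the catalytic core. In complex III it was Uqcrh, the hinge protein that binds cytochrome c1 (587 and 661 CPM), and in complex I Ndufa1 (500 and 515 CPM), a small membrane subunit. In complex II it was Sdhb, the iron-sulfur subunit (140 and 123 CPM), and among the assembly factors Ndufaf8 (83.2 and 68.9 CPM). Complexes IV, I and II and the assembly factors kept this order of medians in both libraries, while complexes III and V had 361 and 309 CPM in the knockout but 278 and 280 CPM in the wild type library.

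**Figure D1:**
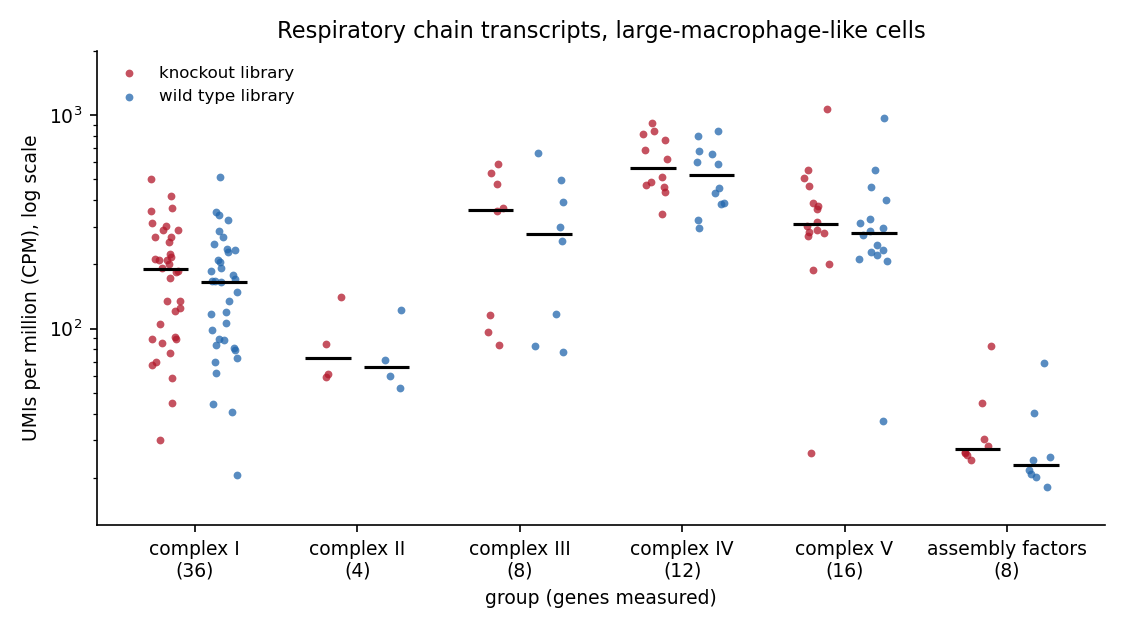
Level of each measured member in large-macrophage-like cells, in CPM (log axis), by complex and library; each point is 1 gene and each bar the median. Complex IV lies highest, with each of its 12 genes above 100 CPM, and the assembly factors have the lowest median, with no gene above 83.2 CPM.

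At the other end, 5 members had 0 UMIs in all barcodes, namely Cox7b2, Cox8b, Cox8c, Ndufa4l2 and the Atp5o feature ENSMUSG00000116933. A further 5 lay under 1 CPM: Cox4i2, Cox6a2, Cox6c2, Ndufa11b and Ndufs6b. Several of these are tissue forms: Cox4i2 is known from lung, Cox6a2 and Cox8b from heart and skeletal muscle, and Cox7b2 and Cox8c from testis. Cox6c2, Ndufa11b, Ndufs6b and Ndufb4c are annotated as processed pseudogenes. Their reads are nearly those of Cox6c, Ndufa11, Ndufs6 and Ndufb4, so the counts of these pairs are uncertain. Ndufb4c had 3.32 and 2.94 CPM in the large class. The members left between 1 CPM and the limit of 20 CPM, besides Ndufb4c, were Ndufaf1, Ndufaf5, Ndufaf6, Sdhaf3, Cox6b2, Cox7a1 and Atp5s.

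Summed over all members, respiratory chain transcripts gave 2.35% of all UMIs in Ankrd22-/- and 2.08% in Ankrd22+/+ large-macrophage-like cells. In small-macrophage-like cells the shares were 2.49% and 2.11%, in cycling cells 2.70% and 2.47%, and in the few B cells 1.97% and 1.83%. The knockout library was higher in each class, by 1.13-fold in the large, 1.18-fold in the small and 1.09-fold in the cycling cells. Within a library, cycling cells stood above large-macrophage-like cells by 1.15-fold in Ankrd22-/- and 1.19-fold in Ankrd22+/+ cells. Small-macrophage-like cells stood above them by 1.06-fold and 1.01-fold.

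The makeup of the sum hardly differed between libraries. In the large class complex IV gave 31.4% of the member UMIs in Ankrd22-/- and 31.0% in Ankrd22+/+ cells, complex I 29.6% and 29.5%, complex V 25.04% and 25.29%, and complex III 11.1% and 11.5%. The 13 protein genes of the mitochondrial DNA, which are not members, differed far more. They gave 1.27% of all UMIs in Ankrd22-/- and 0.636% in Ankrd22+/+ large-macrophage-like cells, so that there were 1.85 and 3.27 member UMIs for each mitochondrial UMI. The nuclear and the mitochondrial genes of the same complexes therefore stood in different proportion in the 2 libraries.

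Between clusters of 1 library the member share differed as much as between libraries. Among the knockout large-macrophage-like clusters it was 2.50% in cluster 1, 1.91% in cluster 2, 2.59% in cluster 5, 2.06% in cluster 9 and 2.44% in cluster 11. Among the wild type ones it was 2.04% in cluster 0, 2.30% in cluster 4, 1.83% in cluster 6 and 2.09% in cluster 12. The ranges of the 2 libraries overlap. Cluster 2, led by globins, Cd209a and Apoc4, and cluster 4, led by globins, Slpi and Fabp4, had the lowest median depths of their libraries, 12054 and 11572 UMIs, but cluster 2 had the lowest member share of its library and cluster 4 the highest. The level of the globin gene Hbb-bs was 162 CPM in cluster 2, 95.6 CPM in cluster 5 and 92.8 CPM in cluster 4, against 7.90 to 20.7 CPM in the other knockout and 0.967 to 8.11 CPM in the other wild type macrophage clusters. Most of these UMIs lay in single cells. In cluster 2 a single cell held 2846 of 3036 Hbb-bs UMIs, in cluster 4 a single cell held 1450 of 1480, and in cluster 5 they lay mostly in 3 cells (1654 of 1861). Without cells of 10 or more Hbb-bs UMIs the levels of clusters 2, 5 and 4 were 10.2, 10.7 and 1.88 CPM. The share of cells with an Hbb-bs UMI was 12.1% to 21.7% over the knockout and 2.08% to 5.11% over the wild type macrophage clusters.

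**Figure D2:**
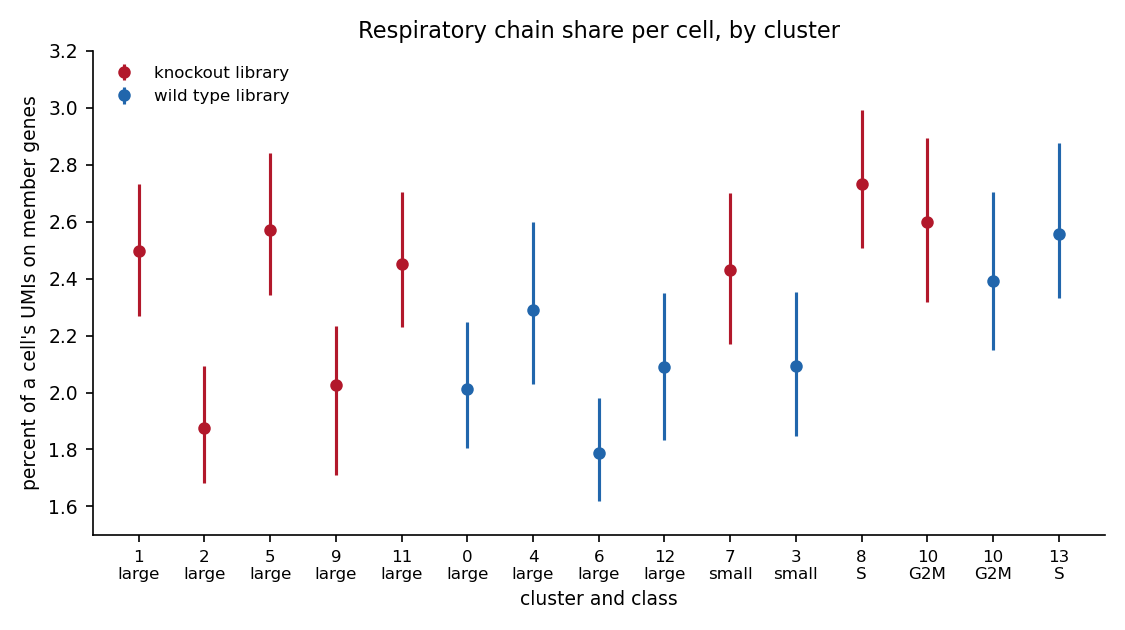
Share of each cell's UMIs that fell on member genes, by cluster (the number, with its class), for the knockout (red) and wild type (blue) libraries; points are medians over cells and bars run from the lower to the upper quartile. The large-macrophage-like clusters of both libraries overlap, and the S-phase-like clusters 8 and 13 are the highest of their libraries.

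The first comparison asks whether the chain's transcripts differ between Ankrd22-/- and Ankrd22+/+ macrophages. In large-macrophage-like cells 72 of the 84 measured members (85.7%) were higher in the knockout library by CPM, where 76.2% of all genes were. The median member log2 ratio was 0.21. The median over all 4678 genes measured was also 0.21. At 1.2-fold, 31 members were higher and 1 lower, where 41.7% of all genes were higher and 8.1% lower, so the members' share of 36.9% lay near the background. With TMM the counts turned round, to 1 higher and 12 lower, where 13.1% and 24.2% of all genes were, and with the median of ratios they were 1 and 14. The count by CPM also rested on which clusters were taken: without cluster 2 of the knockout and cluster 4 of the wild type library, 52 of the 84 members were higher where 39.0% of all genes were, and the medians were 0.32 for members and 0.18 for all genes. Without the 3 clusters with globins among their leading genes (2, 4 and 5) it was 47 members, where 41.4% of all genes were, and without cells of 10 or more Hbb-bs UMIs it stayed at 31. No member reached 1.5-fold, a size at which 10.4% of all genes were higher and 3.31% lower. The members spread less than other genes, with an SD over genes of 0.18 against 0.44 on the log2 scale. Scaled by TMM or by the median of ratios, both the member median and the median gene were at -0.06 or -0.07, a shift of the typical gene from above to below 0, and 29 or 24 of the 84 members were above 0. Over all clusters, the small lead of the knockout by CPM is thus one that the typical gene shared.

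By complex, the median log2 ratio by CPM was 0.21 in complex I (13 of 36 genes at least 1.2-fold higher), 0.20 in complex II (0 of 4), 0.17 in complex III (2 of 8), 0.18 in complex IV (4 of 12) and 0.14 in complex V (6 of 16, with 1 lower). For the assembly factors it was 0.27 (6 of 8). With TMM the medians of complexes I to V were -0.06, -0.06, -0.10, -0.09 and -0.13, and that of the assembly factors was 0.01, so the direction by CPM held for no complex. In complex I the highest ratio was that of Ndufs1, the largest iron-sulfur subunit of the peripheral arm, at 30.05 CPM in Ankrd22-/- and 20.6 CPM in Ankrd22+/+ cells (log2 ratio 0.52). The lowest was that of Ndufab1, the mitochondrial acyl carrier protein, at 77.3 and 88.4 CPM (-0.19). In complex II Sdhd, a membrane anchor, had the highest ratio (84.6 and 71.7 CPM, 0.24, but -0.03 with TMM). Sdha, the flavoprotein that binds succinate, had the lowest (59.4 and 60.1 CPM, -0.02). By CPM 0 of the 4 complex II genes were 1.2-fold apart in either direction, but their median of 0.20 was like those of the other complexes.

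In complex III the extremes lay on opposite sides of 0. Uqcrq, a small subunit near cytochrome b, was at 366 CPM in Ankrd22-/- and 259 CPM in Ankrd22+/+ cells (0.50), and Uqcrh at 587 and 661 CPM (-0.17). In complex IV Cox6a1, the general form of subunit 6a, was at 436 and 294 CPM (0.56, the highest ratio of the 84 measured members), while Cox8a was at 813 and 797 CPM (0.03, but below 0 under TMM and the median of ratios). For Cox6a1, Uqcrq and Ndufs1 the ratio stayed above 0 under both other scalings, at 0.30, 0.23 and 0.26 with TMM. Among assembly factors Ndufaf2, which acts late in complex I assembly, was at 26.3 and 18.1 CPM (0.52, and 0.26 with TMM) and Ndufaf3, which acts early, at 26.4 and 24.3 CPM (0.11, but -0.15 with TMM).

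Complex V held both directions within 1 subunit. Atp5g1 was at 389 CPM in Ankrd22-/- and 286 CPM in Ankrd22+/+ cells (0.44, and 0.17 with TMM), and Atp5g2 at 26.3 and 36.8 CPM (-0.47, counting interval -0.56 to -0.39). Atp5g2 was the 1 member at least 1.2-fold lower, and it stayed lower with TMM (-0.73). Atp5l, subunit g of the membrane part, was at 189 and 220 CPM (-0.22).

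In small-macrophage-like cells the member median log2 ratio of knockout over wild type was 0.27, beside 0.25 for all genes measured. Of the 84 members, 42 were at least 1.2-fold higher and 1 lower, where 48.7% and 9.26% of all genes were. With TMM and with the median of ratios the counts were 1 higher and 16 lower (all genes 12.3% and 31.5% with TMM). At 1.5-fold 1 member was higher (all genes 14.5%), and 0 were lower (4.3%). It was Sdhaf4, an assembly factor of complex II, at 55.1 CPM in Ankrd22-/- and 35.1 CPM in Ankrd22+/+ cells (0.64). Uqcrq (417 and 283 CPM, 0.56) and Ndufc1, a small complex I subunit (320 and 218 CPM, 0.55), followed. The lowest were Atp5g2 (28.3 and 35.2 CPM, -0.31), Atp5l (198 and 224 CPM, -0.17) and Uqcrh (561 and 619 CPM, -0.14). Under TMM the member median was -0.09, and the class itself changed with the clustering, which turned the median to -0.01 at the finer resolution.

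In cycling cells the member median was 0.11, below the 0.15 of all genes, and -0.03 with TMM. At 1.2-fold 26 members were higher and 4 lower, where 35.6% and 13.2% of all genes were. With TMM and with the median of ratios 8 were higher and 9 lower (all genes 21.2% and 22.2% with TMM). At 1.5-fold there was 1 in each direction (10.3% and 5.18% of all genes), Ndufaf2 at 47.7 CPM in Ankrd22-/- and 31.0 CPM in Ankrd22+/+ cells (0.61) and Atp5g2 at 33.0 and 58.0 CPM (-0.79). Atp5g1 (553 and 384 CPM, 0.53) and Ndufs6, an accessory subunit of complex I (212 and 150 CPM, 0.50), came next on the high side, and Ndufaf3 (20.2 and 24.7 CPM, -0.28) and Uqcrh (520 and 627 CPM, -0.27) on the low side. The cycling cells were 395 S-phase-like and 83 G2M-like in the knockout library but 138 and 240 in the wild type library, so phase and genotype move together in this comparison. Ndufaf2 shows it: within S-phase-like cells it was at 47.8 CPM in Ankrd22-/- and 42.2 CPM in Ankrd22+/+ cells, and within G2M-like cells at 47.4 and 24.4 CPM. Atp5g2 was lower in the knockout library in both phases, at 32.5 against 48.5 CPM and at 35.3 against 63.6 CPM. Ndufaf3 did not keep its direction. It was at 18.9 against 16.2 CPM in S-phase-like cells (49 UMIs in the wild type library) and at 25.4 against 29.8 CPM in G2M-like cells.

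Over the 3 classes 61 of the 84 members (72.6%) were above 0 by CPM in each, and 7 (8.33%) were below 0 in each, where 60.9% and 14.7% of all 4433 genes measured in the 3 were. With TMM 17 members were above and 40 below 0 in each (all genes 28.2% and 41.6%). The 7 below 0 by CPM were Atp5g2, Atp5l, Ndufab1, Uqcrh, Ndufb5, Ndufs3 and Atp5g3. The 3 comparisons come from the same 2 libraries, so they do not repeat one another as replicates would.

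**Figure D3:**
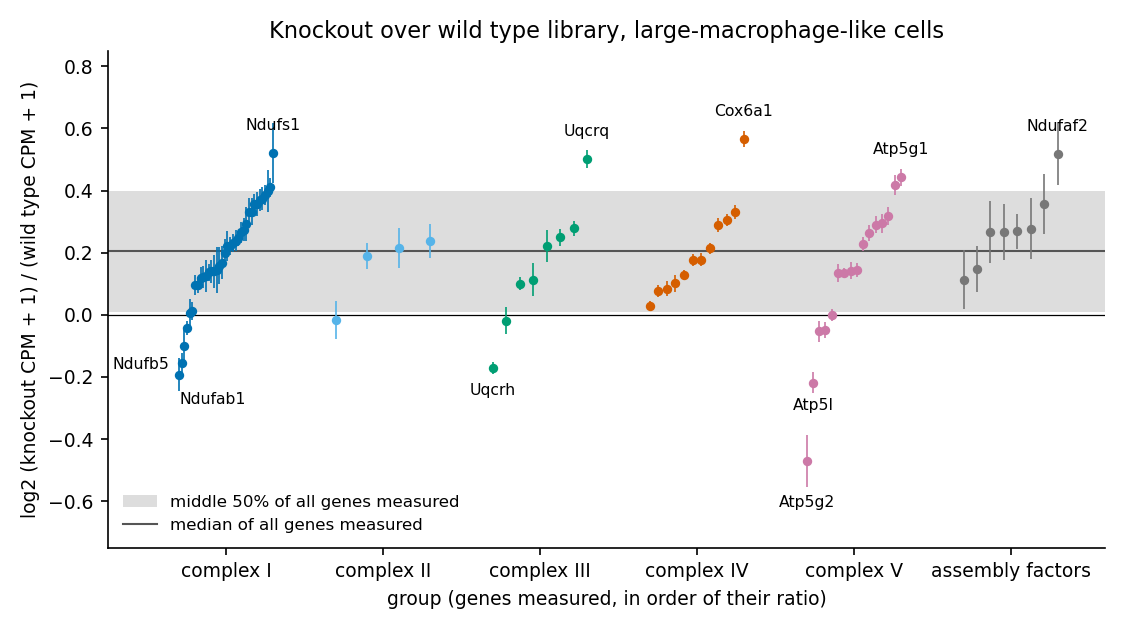
Log2 ratio of knockout over wild type CPM (1 CPM added to each) for every measured member in large-macrophage-like cells, by complex, with counting intervals. The grey line marks the median of all genes measured, and the grey band runs from their lower to their upper quartile. The members gather near that median, with Atp5g2 as the lowest point.

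Cycling state was compared within each library. The cycling cells also differed from the large class in markers of macrophage class. Small-class markers summed to 821 against 353 CPM in the knockout and 3060 against 733 CPM in the wild type library. Large-class markers summed to 19474 against 28291 CPM and 13906 against 22937 CPM. Cycling state and macrophage class are thus not separated in this comparison. Most members were higher in cycling cells of both libraries. Of the complexes, complex V had the highest median in each library, and Ndufaf2 had the highest ratio of the measured members. In the knockout library 29 of 84 members were at least 1.2-fold higher in cycling than in large-macrophage-like cells and 2 were lower, where 25.3% and 13.8% of all genes were. In the wild type library 43 were higher and 0 lower, where 30.8% and 12.8% of all genes were. These counts fell under TMM to 13 higher and 3 lower in Ankrd22-/- cells (all genes 18.3% and 20.3%) and to 10 and 2 in Ankrd22+/+ cells (17.2% and 27.4%), and the median of ratios gave 14 higher in each. By CPM, member medians of 0.20 and 0.28 stood beside 0.05 and 0.10 for all genes. With TMM the member medians were 0.12 and 0.10, with 72 and 59 of 84 members above 0. The share of all genes above 0 with TMM, or past 1.2-fold with the median of ratios, is not given here. Those member counts therefore stand without their background. By CPM, in both libraries together, 71 of the 84 members (84.5%) were above 0, against 49.4% of all genes. At least 1.2-fold higher in both were 26, against 21.1% of all genes. At 1.5-fold 2 members were higher in Ankrd22-/- and 3 in Ankrd22+/+ cells (all genes 8.6% and 11.4%), and 0 were lower in either (2.66% and 2.68%).

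All 16 measured complex V genes were higher in cycling cells by CPM in both libraries, where 56.7% of all genes were in Ankrd22-/- and 62.1% in Ankrd22+/+ cells. Their medians were 0.29 and 0.34. With TMM, for which the share of all genes above 0 is not given, 16 genes were above 0 in Ankrd22-/- and 14 in Ankrd22+/+ cells. Complexes I, II, III and IV had medians of 0.21, 0.21, 0.16 and 0.21 in the knockout and of 0.25, 0.28, 0.31 and 0.26 in the wild type library. The assembly factors were at 0.05 and 0.02 (-0.03 and -0.15 with TMM), not above all genes, although 1 of them, Ndufaf2, had the highest ratio of the measured members in both libraries. Ndufaf2 was at 47.7 CPM in cycling and 26.3 CPM in large-macrophage-like cells of the knockout (0.83) and at 31.0 and 18.1 CPM in those of the wild type library (0.75).

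Ndufab1 was the other complex I gene with a high ratio in both libraries, at 119 against 77.3 CPM in the knockout (0.61) and 130 against 88.4 CPM in the wild type library (0.56). Besides its place in complex I it carries fatty acids for lipoic acid synthesis. Atp5g1 was at 553 against 389 CPM (0.51) and 384 against 286 CPM (0.42), and Cox5a, a matrix-side subunit of complex IV, at 624 against 473 CPM (0.40) and 569 against 386 CPM (0.56). Ndufv1, which holds the flavin that accepts electrons from NADH, was at 72.9 against 58.9 CPM in the knockout (0.30) and 71.7 against 44.5 CPM in the wild type library (0.68). Atp5g2 had ratios of 0.32 and 0.64, and the expressed Atp5o, which links the 2 parts of the ATP synthase, of 0.36 and 0.57.

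Of the members below 0 in both libraries, Ndufa6, an accessory complex I subunit, was at 209 against 253 CPM in the knockout (-0.28) and 206 against 237 CPM in the wild type library (-0.20). Cox7a2l, which takes part in joining complexes III and IV into supercomplexes, was at 290 against 346 CPM (-0.25) and 275 against 322 CPM (-0.23). Uqcrh (-0.17 and -0.08), Ndufa7 (-0.07 and -0.06) and Ndufa1 (-0.06 and -0.05) were nearer to 0. Ndufaf3 was lower in the knockout (-0.37) and at 0.02 in the wild type library, where TMM gave -0.14. By phase, Ndufaf3 was at -0.46 and -0.56 in S-phase-like cells of the knockout and wild type libraries. In G2M-like cells it was at -0.06 and 0.28. The 2 libraries held these phases in different proportion, so the pooled values do not show a drop in the knockout alone. Ndufa1, Ndufa6, Ndufa7, Cox7a2l and Uqcrh thus ran against most of their complexes.

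By phase, members gave 2.71% of all UMIs in S-phase-like and 2.62% in G2M-like cells of the knockout, and 2.56% and 2.42% in the wild type library. Per cell this was 684 and 760 member UMIs in Ankrd22-/- and 563 and 521 in Ankrd22+/+ cells, against 376 and 296 in large-macrophage-like cells. Cycling cells also held more UMIs in all, with medians of 24696 and 21718 against 15229 and 13734. Among cells within the middle UMI range of the cycling cells, the knockout member median was 0.17. The wild type value is not given alone, but the 14 alternatives, this one among them, gave 0.10 to 0.29 there. Over the alternatives the member median lay above the median gene by 0.08 to 0.22 in the knockout and 0.12 to 0.19 in the wild type library. Over large-macrophage-like cells, S-phase-like cells had a member sum 1.16-fold higher in the knockout and 1.23-fold higher in the wild type library, and G2M-like cells 1.12-fold and 1.16-fold. Some members differed by phase: Ndufaf4, a complex I assembly factor, was at 37.4 CPM in S-phase-like and 21.2 CPM in G2M-like cells of the knockout and at 40.5 and 16.1 CPM in those of the wild type library. Uqcrfs1, the Rieske iron-sulfur protein of complex III, ran the other way, at 121 and 142 CPM and at 110 and 174 CPM.

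**Figure D4:**
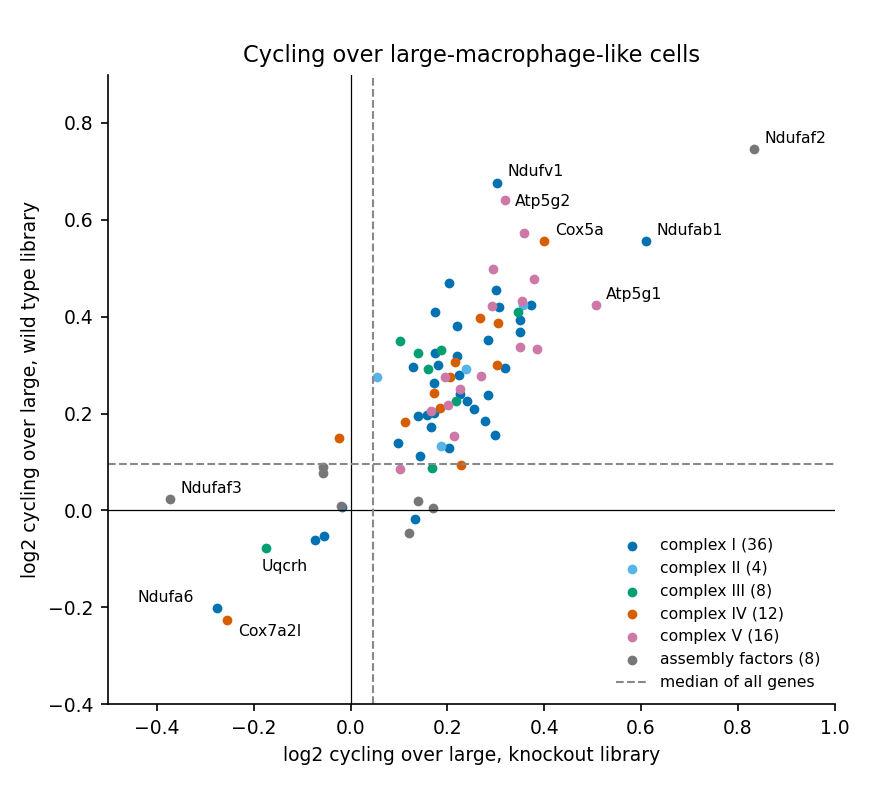
Log2 ratio of cycling over large-macrophage-like cells for each measured member, in the knockout library (x axis) and the wild type library (y axis), coloured by complex; dashed lines mark the medians of all genes. Most members lie in the upper right, with Ndufaf2 farthest out, and Ndufa6, Cox7a2l and Uqcrh lie in the lower left.

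Small- and large-macrophage-like cells differed less. In the knockout library 4 of 84 members were at least 1.2-fold higher in the small class and 0 lower, where 17.1% and 6.49% of all genes were, and in the wild type library 0 of 82 in either direction, where 7.94% and 3.67% were. By CPM the member medians of 0.09 and 0.04 lay beside 0.09 and 0.05 for all genes. With TMM the member medians were -0.03 and -0.02, and 0 members were at least 1.2-fold higher and 3 lower in the knockout. The shares of all genes with TMM are not given here, so nothing is read from that count. Cox5a had the highest ratio in both libraries, at 605 against 473 CPM in the knockout (0.36) and 439 against 386 CPM in the wild type library (0.18), and Sdha had 0.34 and 0.17. Ndufa9, a complex I subunit, had 0.30 in the knockout library. The lowest were Ndufa6 (-0.24 and -0.14), Cox7a2l in the knockout (-0.23) and Sdhaf4 in the wild type library (-0.20), which had 0.29 in the knockout.

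The use of isoforms differed between the libraries in 2 families. The 3 subunit c genes were used in the order Atp5g1, Atp5g3, Atp5g2 in each class. In large-macrophage-like cells Atp5g1 gave 63.1% of their UMIs in the knockout (95% exact binomial interval 62.7% to 63.5%) and 53.8% in the wild type library (53.3% to 54.4%). Atp5g3 gave 32.6% and 39.2%, and Atp5g2 gave 4.27% and 6.94%. In small-macrophage-like cells Atp5g1 gave 62.5% and 52.9%, and in cycling cells 65.2% and 52.4%. A share within the family does not depend on how the libraries are scaled. The intervals cover counting error alone and say nothing of the spread between mice.

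The share of Atp5g1 was not the same in all knockout clusters, however. It was 65.5% in cluster 1, 66.0% in cluster 5 and 66.1% in cluster 11, but 58.3% in cluster 9 and 50.6% in cluster 2, where Atp5g1 was at 191 CPM against 453 CPM in cluster 1. In the wild type clusters it was 53.4% in cluster 0, 56.8% in cluster 4, 48.2% in cluster 6 and 54.6% in cluster 12. Cluster 2 thus lay within the wild type range. By phase, Atp5g1 gave 66.9% in Ankrd22-/- and 57.1% in Ankrd22+/+ cells among S-phase-like cells, and 57.1% and 48.7% among G2M-like cells, so that phase shifted the share about as much as library did.

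Cox7a1 was low in both libraries but more frequent in the knockout. In large-macrophage-like cells it had 1151 UMIs (14.3 CPM) in Ankrd22-/- and 222 UMIs (3.77 CPM) in Ankrd22+/+ cells, or 3.02% and 0.866% of the UMIs of Cox7a1 and Cox7a2 together. In small-macrophage-like cells it was at 13.1 and 4.45 CPM, and in cycling cells at 12.5 and 3.41 CPM. The ranges over the macrophage clusters did not overlap, at 7.96 to 17.4 CPM in the knockout and 2.51 to 5.21 CPM in the wild type library. Its log2 ratio of 1.68 in the large class was 1.44 with TMM. Cox7a1 lies under the limit of 20 CPM and is not among the 84 measured members.

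A UMI of Cox7a1 was found in 17.9% of Ankrd22-/- and 4.76% of Ankrd22+/+ large-macrophage-like cells, at median depths of 15229 and 13734 UMIs. In B cells, which were far shallower (3772 and 5226 UMIs), it was seen in 1 of 31 and 2 of 38 cells. After each cell was thinned to 2000 UMIs, leaving out 37 and 54 shallower cells, the shares of large-macrophage-like cells were 2.34% and 0.685%, and 0 of 26 and 0 of 36 B cells had a UMI. A count of 0 in so few cells allows shares of up to 11.5% and 8.33%. The B cells are therefore too few to set a background for free RNA at this depth. Cox7a2, the general form, was at 458 CPM in Ankrd22-/- and 432 CPM in Ankrd22+/+ cells.

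**Figure D5:**
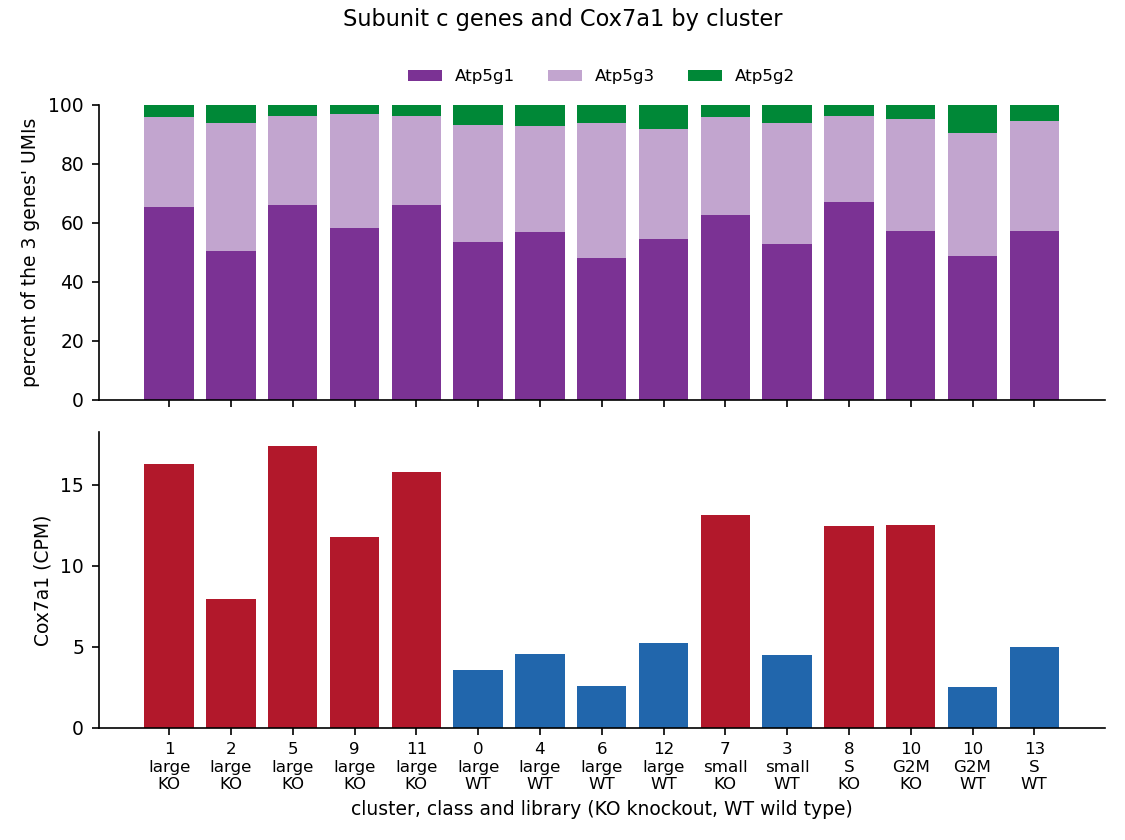
Share of the UMIs of Atp5g1, Atp5g3 and Atp5g2 (top, percent of the 3 genes) and level of Cox7a1 (bottom, CPM) in each cluster of each library. Atp5g1 takes the largest share in every cluster shown, from 48.2% to 66.9%, and Cox7a1 is at 7.96 CPM or more in each knockout and at 5.21 CPM or less in each wild type cluster shown.

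The remaining families were used almost wholly in 1 form. Cox6a2 gave at most 0.173% of the UMIs of Cox6a1 and Cox6a2, and Cox6b2 at most 0.414% of those of Cox6b1 and Cox6b2, in the 3 classes of both libraries. Cox4i1, Cox8a and Ndufa4 likewise carried their families.

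Other genes of the pathway, outside the chosen prefixes, were described by lists, and their counts in large-macrophage-like cells are set against the same 41.7% and 8.1% of all genes. Of 6 further subunits and electron carriers 5 were measured and all 5 were past 1.2-fold on the knockout side. By CPM, which includes the 0.21 of the median gene, they were Etfb and Etfa, the electron transfer flavoprotein that feeds electrons from fatty acid oxidation (Etfb 208 and 133 CPM, 0.64; Etfa 0.45), Atpif1, the inhibitor of ATP synthase (642 and 441 CPM, 0.54), Cyc1, cytochrome c1 (0.38) and Cycs, cytochrome c (0.26). Of 25 complex IV assembly genes 15 were measured, with 5 higher, 0 lower and a median of 0.22. Both measured complex III assembly genes were higher, Uqcc2 at 206 and 133 CPM (0.63) and Uqcc3 at 0.41. Of 14 regulators of mitochondrial genes 1 was measured, Yy1 (0.30).

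The transcripts of the mitochondrial DNA behaved unlike the nuclear genes in both kinds of comparison. Of 13 protein genes 11 were measured in large-macrophage-like cells. All 11 were past 1.5-fold on the knockout side, with a median log2 ratio of 1.04, where 0 of 84 nuclear members and 10.4% of all genes were. The difference was not limited to this class. The 13 genes gave 1.03% of all UMIs in knockout and 0.571% in wild type small-macrophage-like cells, 1.26% and 0.560% in cycling cells, and 2.01% and 1.02% in B cells. In cycling over large-macrophage-like cells their medians were -0.06 in Ankrd22-/- and -0.25 in Ankrd22+/+ cells, while those of the nuclear members were 0.20 and 0.28.

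The genes whose CPM most nearly followed the summed member level over the 8 sums of 4 classes and 2 libraries were found among 4904 candidates. They were Slirp (Pearson r 0.991), Vdac3 (0.986), Etfa (0.984), Ccdc127 (0.982) and Psmc6 (0.981). The 8 sums share 2 libraries and their depths, so these values are a description.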

How the data were processed

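The deposited files hold UMI counts for each gene and barcode, which the authors produced in Cell Ranger (version 6.1.2, per the file headers) and limited to called cells. The kit was the 10x Single Cell 3′ v3 kit, per the labels' protocols. The submitters' processing notes also name bcl2fastq, Seurat 4.1.0 and the mm9 build without their roles. All 55450 feature identifiers are in GENCODE M21 (GRCm38), which gave gene types. How reads that match several genes were counted is not given in the sources used here.

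The members and lists were chosen with earlier results of these data known. Left out were barcodes below 500 genes or above 10% mitochondrial UMIs, and the 324 knockout and 313 wild type barcodes with the highest Scrublet scores, since its automatic threshold called 1 in each library. Libraries held 110956482 and 96869041 UMIs. Counts were scaled to 10000 per cell and 2000 variable genes (0 of them members), 30 components and 15 neighbours were used for Leiden clustering at resolution 1 (scanpy 1.11.5), without integration. Clusters were named from lists of 16 classes, and a cluster of under 20 cells stayed unnamed. The thresholds for counting markers were set after the data were seen. Globins are among the leading genes of clusters 2, 4 and 5. They were not counted against a name, since 1 to 3 cells of each cluster held 88.9% to 98.0% of its Hbb-bs UMIs and the share of cells with one was like that of the other macrophage clusters of the library. UMIs were summed by class and library, and log2 ratios of CPM with 1 added carry exact conditional binomial intervals (95%), which cover counting error alone. There was no test, as each genotype had 1 library. Named members were the highest in level and the highest and lowest in ratio of each complex, the 3 highest and 3 lowest of the other comparisons, those past 1.5-fold, the isoform genes and those under 1 CPM. Members named by phase were picked after their values were seen. TMM factors came from edgeR 4.0.16. The scripts were tested on simulated counts. Alternatives are in the closing section.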

Additional observations from a re-analysis of the deposited data

Results flagged for a closer look

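The member share of UMIs ran in opposite directions with depth in the large-macrophage-like cells of the 2 libraries. From the lowest to the highest quartile of cells by UMI count it went from 2.18% to 2.41% in the knockout (0.229 percentage points) and from 2.26% to 2.02% in Ankrd22+/+ cells (-0.236 percentage points). The difference was not tested. Within the 3 largest clusters of each library it was -0.0901, -0.0313 and -0.0794 percentage points in knockout clusters 1, 2 and 5, and -0.0516, -0.254 and 0.118 in wild type clusters 0, 4 and 6. In those 3 knockout clusters the share was thus lower, not higher, in the deepest quartile.

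Ndufb1-ps, which the choice by symbol left out, had 376 CPM in knockout and 342 CPM in wild type large-macrophage-like cells. These levels are in the range of the complex I members. It is annotated as a bidirectional promoter lncRNA, and 42721 and 34027 UMIs fell on it in the 2 libraries.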

How the results depend on the processing

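No paired analysis was possible because each genotype has 1 library and the result comes from no test. The member medians of knockout over wild type reversed with TMM factors and median of ratios factors: -0.060 and -0.072 in the large, -0.094 and -0.082 in the small, and -0.029 and -0.030 in the cycling cells. In the large class the median was 0.14 with cells thinned to 2000 UMIs. Leaving out clusters 2 and 4, the shallowest of their libraries (an alternative added after the data were seen), gave 0.32 beside 0.18 for all genes, with 52 members at least 1.2-fold higher where 39.0% of all genes were. Without cluster 2 alone it was 0.27, with 44 higher (43.2%), and without cluster 4 alone 0.25, with 38 higher (38.0%). Without clusters 2, 4 and 5, also added, it was 0.29. In the small class it was 0.15 at a 5% mitochondrial limit, 0.16 with no limit, 0.055 at resolution 0.5, -0.0082 at resolution 2 and 0.21 thinned. For cycling over large cells, TMM and median of ratios gave 0.12 and 0.14 in the knockout and 0.10 and 0.12 in the wild type library. The knockout value was 0.17 with no mitochondrial limit, 0.28 thinned and 0.17 in the middle UMI range. Members at least 1.2-fold higher numbered 13 and 10 with TMM, and 14 and 14 with the median of ratios. For small over large cells, the same factors gave -0.034 and -0.033 in the knockout and -0.017 and -0.017 in the wild type library. The knockout median was 0.049 with no mitochondrial limit, -0.068 at resolution 0.5 and -0.14 at resolution 2. The wild type median was 0.12 at the 5% limit, 0.11 with no limit, 0.088 with doublets kept, 0.10 and 0.086 at resolutions 0.5 and 2, and 0.0085 thinned.

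The member share of UMIs moved past counting error but little in size. In knockout large cells it was 2.39% without mitochondrial genes in the total, 2.31% thinned, 2.37% with no limit, 2.35% with doublets kept, and 2.37% and 2.36% at resolutions 0.5 and 2. In wild type large cells it was 2.10%, 2.12%, 2.09% and 2.07% in the order of the first 4, and 2.08% at resolution 2. In knockout cycling cells it was 2.74%, 2.74%, 2.66% and 2.67% in that order, 2.68% at the 5% limit, 2.71% at resolution 0.5 and 2.65% for cells with 5 UMIs of G2M markers. In wild type cycling cells it was 2.49%, 2.50%, 2.44%, 2.45%, 2.46% and 2.41%, without resolution 0.5. Thinning moved the Atp5g2 share in wild type large cells to 6.62%. The cause was not tested. Leaving the members out of the variable genes made no difference, as 0 of them were among those genes.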

Other observations

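Barcodes left out for over 10% mitochondrial UMIs carried few member transcripts. In the 77 such barcodes of the knockout library members made up 0.534% of the UMIs, and in the 9 of the wild type library 0.727%, at median depths of 1446 and 1372 UMIs. Among the large-macrophage-like cells that were kept, the member share was lowest in the quartile of highest mitochondrial percent in both libraries. It did not fall at each step. From the lowest to the highest quartile of large-macrophage-like cells by mitochondrial percent it was 2.36%, 2.35%, 2.37% and 2.32% in the knockout and 2.15%, 2.15%, 2.05% and 1.99% in the wild type library.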
